A study of Mus musculus with 100 samples.

Results

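The libraries described here are those of the series with a low level of Taf4, the transcript of a core subunit of the general transcription factor TFIID. They are 2 of 100 mRNA libraries from V6.5 cells, a mouse embryonic stem cell line, and carry the titles shTaf4b Rep1 and shTaf4 Rep2. They were chosen by their measured Taf4 level, because the titles of the replicate 1 libraries in this set of knockdowns disagreed with the levels of the targets. Their reference was the 2 shControl libraries made for the TFIID subunits and Med15, Med16, Med23, Med24 and Med25, which together with these 20 knockdowns form a set of 42 libraries. In all groups the cells were first separated from their feeder layer and then received 1.8 µg of plasmid, which encoded a short hairpin RNA (shRNA) or was the control. Puromycin at 1 µg/ml was added at 24 h, and selection lasted 72 h. The labels name the target but neither the hairpin nor the number of hairpins, so an effect of the hairpin on other transcripts and an effect of Taf4 cannot be told apart. Nor do they state whether paired libraries stem from separate cultures, so p-values measure the spread between these libraries, which may be technical.

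TFIID recognises core promoters and places TBP, the TATA-binding protein, for assembly of the RNA polymerase II machinery. It consists of TBP and the TBP-associated factors (TAFs), many of which meet through histone-fold pairs. TAF4 forms such a pair with TAF12 and belongs to the scaffold of the complex. TAF4B is its paralog, known from the germ line and embryonic stem cells, while TAF12 is also a subunit of the SAGA coactivator.

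Levels are in RPKM (reads corrected for the length of the transcript and the depth of the library), as deposited by the authors, for 1 transcript per gene. Values of the low-Taf4 libraries are given in the order shTaf4b Rep1, shTaf4 Rep2, and those of the controls in the order Rep1, Rep2. The denominators were 20.1 and 18.7 M reads in the low-Taf4 libraries, against 24.4 and 18.7 M in the controls, where 1 read on a kilobase of transcript was worth 0.0410 to 0.0535 RPKM. Over the whole series the denominators ran from 17.3 to 39.3 M reads. RPKM values are shares of a library, and without a spike-in a shift common to all transcripts cannot be seen.

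Taf4 (RefSeq transcript NM_001081092) stood at 7.38 and 7.90 RPKM in the low-Taf4 libraries, against 13.03 and 13.8 RPKM in the controls. These levels were 55.1% and 59.0% of the control mean and chose the libraries, so they were not tested. The next library of the set in order of Taf4 had 10.6 RPKM and was titled shMed16 Rep1. The other 40 libraries of the set, the controls included, had 10.6 to 16.6 RPKM (median 14.2). Over the whole series, a Taf4 level of this size was not particular to these libraries. The 6 libraries of the separate set for Med1 and Med14, its controls included, had 7.68 to 10.1 RPKM (median 8.72). The 52 libraries of the set for the remaining Mediator subunits, Gcn5 and Usp22 (called the other Mediator set) were all higher, at 10.5 to 14.7 RPKM. In bulk libraries fewer cells with a transcript and less of it per cell cannot be told apart.

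The label doubt is as follows. The library titled shTaf4 Rep1 had 15.3 RPKM of Taf4 and 1.64 RPKM of Taf3, the lowest Taf3 value of the set. The library titled shTaf4b Rep1 had 8.34 RPKM of Taf4b, inside the range of the set, whereas the library titled shTaf5 Rep1 had 2.80 RPKM of Taf4b. Measured against the median of the set, the gene in the title was the lowest of the 20 targets in 1 of 20 libraries titled replicate 1 and in 20 of 20 titled replicate 2. For 13 of 13 replicate 1 titles that could be so compared, the lowest target was the TAF that precedes the titled one in number order. The control libraries showed no target that stood so low: the lowest of the 20 was at 77.8% of the set median in control Rep1 (Med25) and at 87.6% in control Rep2 (Taf4b).

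**Figure D1:**
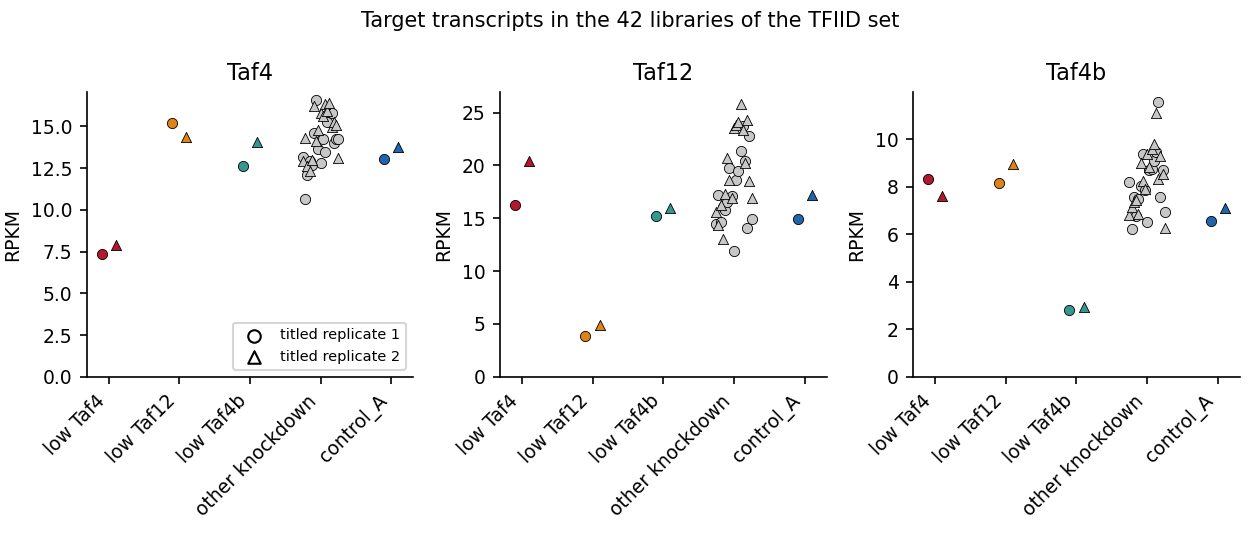
Levels of Taf4, Taf12 and Taf4b in RPKM (vertical axes, starting at 0) in the 42 libraries of the TFIID set, with circles for libraries titled replicate 1 and triangles for those titled replicate 2. The low-Taf4 libraries lie at 7.38 and 7.90 RPKM of Taf4, below the 10.6 to 16.6 RPKM of the others, and within the range of the other libraries for Taf12 and Taf4b.

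The other subunits of TFIID were measured in the same libraries. Of the 15 listed, 14 besides Taf4 were tested and 0 passed in the comparison with the controls, with a median log2 difference of 0.05, beside -0.01 over all genes tested. Taf12, the partner of TAF4, had 16.3 and 20.4 RPKM in the low-Taf4 libraries, against 14.9 and 17.2 RPKM in the controls, and the groups overlapped. Taf4b had 8.34 and 7.63 RPKM in the low-Taf4 libraries, against 6.58 and 7.11 RPKM in the controls. The low-Taf4 values lay above both controls, with a log2 difference of 0.20 ± 0.09 (SE) that limma did not call (adjusted p = 0.64). They lay on either side of the set median of Taf4b, 8.11 RPKM, while both controls lay below it. Taf5, a scaffold subunit with WD40 repeats, had 10.7 and 12.1 RPKM in the low-Taf4 libraries, against 8.69 and 9.10 RPKM in the controls. This was the widest difference among the subunits, at 0.32 ± 0.09, and was not called either (limma, adjusted p = 0.45). A Taf5 level of this size was not particular to low Taf4. The libraries with low Taf4b (titled shTaf5 Rep1 and shTaf4b Rep2) had 10.2 and 12.3 RPKM of Taf5. Tbp itself was close to level, with 20.1 and 19.5 RPKM in the low-Taf4 libraries and 19.5 and 19.3 RPKM in the controls.

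Among the paralogs, 6 of 7 were tested and 0 passed. Taf7l, the X-linked paralog of Taf7 known from male germ cells, had 3.08 and 2.90 RPKM in the low-Taf4 libraries, against 5.85 and 4.79 RPKM in the controls. Both low-Taf4 values lay below both controls, with a log2 difference of -0.66 ± 0.11 and an adjusted p of 0.28 in limma. A low Taf7l was not particular to these libraries. The libraries with low Taf4b, titled shTaf5 Rep1 and shTaf4b Rep2, had 3.18 and 3.89 RPKM. Taf7 itself had 33.9 and 36.7 RPKM in the low-Taf4 libraries, against 32.3 and 33.8 RPKM in the controls.

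The first question was which genes differed between the low-Taf4 libraries and the controls. With limma on log2(RPKM + 1), 0 of 11536 genes (0%) passed an adjusted p of 0.05. At an unadjusted p under 0.05 there were 952 genes, 372 higher and 580 lower. The pseudocount of 1 makes the differences of genes near 1 RPKM smaller than the ratio of their levels. The log2 difference between the low-Taf4 libraries had an SD over genes of 0.17, that between the controls 0.20, and 20 genes differed at least 2-fold within each pair. Both low-Taf4 values lay above both controls for 2003 genes (17.4%) and below both for 2429 (21.1%). Set against the control with the same replicate number, 3 genes were at least 1.5-fold higher in both numbers and 15 at least 1.5-fold lower.

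The count of 0 depends on a spread estimated from 4 libraries. It also depends on leaving the replicate number out of the fit, and counts with that number as a block are given in the last section. With a spread that takes in the 52 libraries of the other Mediator set, 664 genes were called higher and 881 lower. With the spread of all 42 libraries of the TFIID set 0 were called. There the other libraries were grouped by their titles, so the label doubt put differences between knockdowns into the spread. That setting therefore cannot back the count of 0. Leaving out 1 library, with the lone library assumed to vary like the other pair, gave 3 higher and 12 lower without shTaf4b Rep1, 0 and 15 without shTaf4 Rep2, 2 and 6 without control Rep1, and 14 and 9 without control Rep2.

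The genes named next were taken by size of difference among genes with at least 5 RPKM in either group and no overlap between the groups, so their lack of overlap is a result of the choice. Lncenc1, a long noncoding RNA of embryonic stem cells, had 13.9 and 14.8 RPKM in the low-Taf4 libraries, against 26.3 and 26.9 RPKM in the controls. The low-Taf4 libraries had close to the same level as each other, and so did the controls, with a log2 difference of -0.84 ± 0.08 (limma, adjusted p = 0.072). Its log2 difference was -0.87 within replicate number 1 and -0.81 within replicate number 2. The deposited tables hold 3 Lncenc1 transcripts, of which only the 1 with the highest mean was read.

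Since TFIID acts at core promoters, the 200 bases before the transcription start are shown for Lncenc1 and Taf7l, which were low in the low-Taf4 libraries, and for Tdrd12, the single gene called against the low-Taf4b libraries, as RefSeq gives them for GRCm38.p6, 5′ to 3′ in the direction of transcription. Capitals mark TATAAA, the letters of the TATA box, and CCAAT, searched on both strands together with TGACGTCA, the letters of the cyclic AMP response element. CCAAT on the reverse strand reads ATTGG.
Lncenc1 (chr13:97434770-97434969, + strand): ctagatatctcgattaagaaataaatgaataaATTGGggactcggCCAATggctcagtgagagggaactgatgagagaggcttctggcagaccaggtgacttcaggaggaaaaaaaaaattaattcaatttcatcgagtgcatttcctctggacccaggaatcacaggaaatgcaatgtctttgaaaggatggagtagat
Taf7l (chrX:134476491-134476690, − strand): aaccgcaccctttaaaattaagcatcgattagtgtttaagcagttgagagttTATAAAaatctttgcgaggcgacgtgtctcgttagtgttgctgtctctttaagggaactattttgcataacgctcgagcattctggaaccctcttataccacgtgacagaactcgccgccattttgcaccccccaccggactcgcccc
Tdrd12 (chr7:35537716-35537915, − strand): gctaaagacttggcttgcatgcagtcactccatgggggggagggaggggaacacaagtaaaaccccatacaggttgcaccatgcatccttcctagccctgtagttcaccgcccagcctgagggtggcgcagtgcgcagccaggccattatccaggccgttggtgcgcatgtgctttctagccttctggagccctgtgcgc

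The Lncenc1 window held CCAAT letters at 168 to 164 and at 155 to 151 bases before the start. The Taf7l window held TATAAA at 148 to 143 bases. TTTATA, which is TATAAA on the reverse strand, overlaps it there and is only partly in capitals. None of the 3 motifs was in the Tdrd12 window shown. RefSeq lists 2 starts for Tdrd12, and the window of the other was not read. Over all 32851 promoter windows in the RefSeq table, 13.6% held TATAAA, 37.4% CCAAT and 1.79% TGACGTCA. Those windows may be longer than the ones shown, so the shares cannot serve as their background. A motif comparison over the genes tested is not reported here. Of these genes 79.7% had a window, just under the share required for such a comparison.

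Among the lower genes were 2 other noncoding RNAs. Platr14, a noncoding transcript associated with pluripotency, had 6.89 and 7.96 RPKM in the low-Taf4 libraries, against 13.97 and 12.4 RPKM in the controls (log2 -0.75). Eprn, the noncoding RNA Ephemeron of embryonic stem cells, had 5.67 and 6.76 RPKM in the low-Taf4 libraries, against 9.36 and 11.2 RPKM in the controls (-0.64). Neither passed the limma test (adjusted p = 0.28 for each).

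The next genes by size were not called either. Car2, a carbonic anhydrase, had 26.5 and 31.7 RPKM in the low-Taf4 libraries, against 43.4 and 49.5 RPKM in the controls (log2 -0.66). Folr1, a folate receptor, had 12.8 and 14.5 RPKM in the low-Taf4 libraries, against 20.7 and 22.7 RPKM in the controls (-0.63). Dok2, a docking protein of tyrosine kinase signalling, had 6.57 and 9.63 RPKM in the low-Taf4 libraries, against 12.4 and 14.5 RPKM in the controls (-0.68). The shTaf4 Rep2 library was the nearer of the pair to the controls for Car2, Folr1 and Dok2. Insm1, a zinc-finger factor of neuroendocrine cells, had 2.89 and 3.10 RPKM in the low-Taf4 libraries, against 4.94 and 5.65 RPKM in the controls (-0.65). Aard had 4.50 and 6.23 RPKM in the low-Taf4 libraries, against 9.74 and 11.8 RPKM in the controls (-0.90). The same list held the small RNAs Mir3064 and Mir6340, whose reads cannot be told from those of overlapping transcripts.

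On the higher side the differences were smaller, from 0.51 to 0.69 on the log2 scale, and none of the 12 genes was called (limma, adjusted p of 0.28 to 0.48). Arhgef25, a guanine nucleotide exchange factor, had 9.67 and 10.6 RPKM in the low-Taf4 libraries, against 6.31 and 6.09 RPKM in the controls, with a difference of 0.63 ± 0.09. Rragb, a Rag GTPase that signals amino acids to mTORC1, had 5.92 and 5.30 RPKM in the low-Taf4 libraries, against 3.33 and 3.31 RPKM in the controls (0.61 ± 0.10). In these genes the pairs were tight and well apart.

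Trh, which encodes the precursor of thyrotropin-releasing hormone, had 15.9 and 13.7 RPKM in the low-Taf4 libraries, against 8.75 and 10.1 RPKM in the controls (0.61). Olig1, a factor of oligodendrocyte precursors, had 14.1 and 15.5 RPKM in the low-Taf4 libraries, against 7.86 and 11.2 RPKM in the controls (0.60). For Olig1 the controls differed more from each other than the low-Taf4 libraries did.

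The remaining genes with higher values included Dppa3 (Stella), a maternal factor and mark of naive pluripotency. It had 7.16 and 7.46 RPKM in the low-Taf4 libraries, against 4.21 and 5.24 RPKM in the controls (0.54 ± 0.11). Cox7a1, the muscle isoform of a cytochrome c oxidase subunit, had 5.84 and 4.68 RPKM in the low-Taf4 libraries, against 2.02 and 3.95 RPKM in the controls. Its log2 difference was 1.18 within replicate number 1 and 0.20 within replicate number 2, so control Rep1 set most of the value of 0.69. Ppp1r14a, an inhibitor of myosin phosphatase, had 6.17 and 7.46 RPKM in the low-Taf4 libraries, against 3.17 and 4.74 RPKM in the controls. Kctd2, Eif2s3y, Erbin, Isoc2a and Apobec1 completed the 12, with differences of 0.51 to 0.58. Eif2s3y is the Y-linked copy of Eif2s3x, and reads may be split between these copies.

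**Figure D2:**
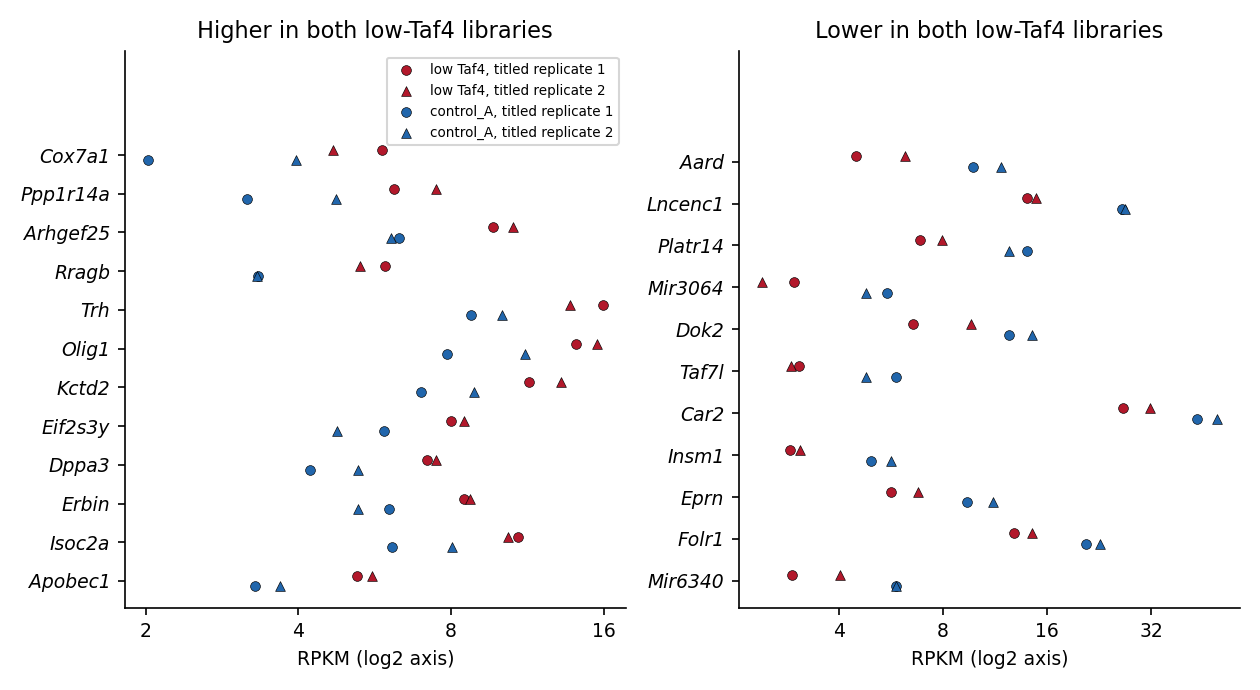
RPKM (horizontal log2 axes) of 23 genes named by size of difference, in the low-Taf4 libraries (red) and the controls (blue), with circles for titled replicate 1 and triangles for titled replicate 2. All 23 were chosen for having no overlap between red and blue points, and 0 of the 23 passed the adjusted test.

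At the 2-fold size, 4 genes of any level were found, 1 higher and 3 lower. They were DQ267102 on the higher side and Snord33, Snord45c and Snord96a on the lower, named here after their values were seen. The last 3 are small nucleolar RNAs encoded inside host genes. Snord33 had 1.82 and 0 RPKM in the low-Taf4 libraries, against 3.002 and 2.61 RPKM in the controls, and 0 of the 4 passed the limma test (952 genes had an unadjusted p under 0.05).

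Markers of the cell state were read next, with lists chosen when earlier results of these data were known. The 11 embryonic stem cell markers summed to 1217 and 1328 RPKM in the low-Taf4 libraries, against 1152 and 1319 RPKM in the controls. Pou5f1 (Oct4) had 294 and 328 RPKM in the low-Taf4 libraries, against 293 and 352 RPKM in the controls. The 13 markers of fibroblast feeders summed to 7.26 and 7.45 RPKM in the low-Taf4 libraries, against 8.32 and 8.52 RPKM in the controls, with Lum at 0 throughout. Their part in the other differences was not tested.

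In the comparison with the controls, 0 genes were called in each of the 32 lists (limma), so the lists are described by their medians and by how many members lay above or below both controls, to be read against 17.4% of all genes above and 21.1% below. The naive pluripotency list had a median of 0.13 on the log2 scale, beside -0.01 over all genes, with 6 of 14 members above both controls and 0 below. Esrrb, an orphan nuclear receptor of the naive network, had 46.4 and 49.1 RPKM in the low-Taf4 libraries, against 33.1 and 40.6 RPKM in the controls (0.37 ± 0.11, adjusted p = 0.45). Fgf4, a growth factor made by pluripotent cells, had 33.6 and 41.8 RPKM in the low-Taf4 libraries, against 25.03 and 29.98 RPKM in the controls (0.44 ± 0.13, adjusted p = 0.45). Not all members lay on that side: Gbx2 had 29.9 and 36.0 RPKM in the low-Taf4 libraries, against 34.5 and 44.3 RPKM in the controls. Of the general pluripotency list 4 of 12 members lay above both controls and 0 below (median 0.10), and of the primed list 4 of 9 and 0 (median 0.08). Nanog had 49.6 and 54.0 RPKM in the low-Taf4 libraries, against 41.2 and 43.9 RPKM in the controls, and Otx2 had 20.1 and 21.0 RPKM in the low-Taf4 libraries, against 13.8 and 15.99 RPKM in the controls.

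The germline list had the lowest median, -0.27, with 7 of 9 members below both controls and 0 above. Ddx4, an RNA helicase of germ cells, had 10.3 and 11.2 RPKM in the low-Taf4 libraries, against 15.6 and 13.4 RPKM in the controls (-0.40 ± 0.10, limma adjusted p = 0.36). Stra8, which is needed for entry into meiosis, had 0.751 and 1.18 RPKM in the low-Taf4 libraries, against 2.17 and 3.57 RPKM in the controls (-0.96 ± 0.19, limma adjusted p = 0.28). The libraries with low Taf4b had 0.815 and 1.16 RPKM of Stra8. These are low levels. Dmrt1, the most abundant member, overlapped between the groups with 8.63 and 13.2 RPKM in the low-Taf4 libraries and 12.6 and 16.3 RPKM in the controls.

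Markers of extraembryonic lineages were also on the lower side. Of 8 trophectoderm markers tested, 5 lay below both controls and 0 above (median -0.22), and the 11 listed summed to 398 and 381 RPKM in the low-Taf4 libraries, against 471 and 442 RPKM in the controls. Krt8, a keratin of simple epithelia, had 144 and 141 RPKM in the low-Taf4 libraries, against 169 and 171 RPKM in the controls (-0.25 ± 0.09, limma adjusted p = 0.53). The libraries with low Taf4b had 145 and 130 RPKM of Krt8. The 15 primitive endoderm markers summed to 1414 and 1176 RPKM in the low-Taf4 libraries, against 1463 and 1505 RPKM in the controls, and 5 of 13 tested members lay below both controls and 1 above (median -0.14). Of 5 neuroectoderm markers tested 2 lay above both controls and 2 below. Tubb3, a neuronal tubulin, had 14.7 and 16.3 RPKM in the low-Taf4 libraries, against 11.3 and 13.9 RPKM in the controls, whereas Sox1, a factor of neural progenitors, had 1.61 and 2.68 RPKM in the low-Taf4 libraries, against 3.44 and 3.71 RPKM in the controls. The 9 listed summed to 31.4 and 33.9 RPKM in the low-Taf4 libraries, against 31.7 and 33.0 RPKM in the controls. Of the 9 mesendoderm markers 2 were tested and both overlapped. None of the 7 two-cell-like genes reached the level needed for a test. Zscan4c had 0.196 and 0.165 RPKM in the low-Taf4 libraries, against 0.685 and 1.01 RPKM in the controls.

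Among signalling targets, 5 of 13 genes of the TGF-beta and BMP list lay below both controls and 0 above (median -0.11). These included Id1, Id2 and Id3, inhibitors of basic helix-loop-helix factors. Id2 had 9.06 and 10.9 RPKM in the low-Taf4 libraries, against 14.8 and 13.97 RPKM in the controls (-0.50 ± 0.10, limma adjusted p = 0.29). Id1 had 37.9 and 47.8 RPKM in the low-Taf4 libraries, against 52.98 and 66.4 RPKM in the controls. Of 20 p53 targets, 11 lay below both controls and 2 above (median -0.11). Perp, a membrane protein of the apoptosis programme, had 25.4 and 26.1 RPKM in the low-Taf4 libraries, against 37.5 and 35.4 RPKM in the controls. The libraries with low Taf4b had 26.9 and 26.1 RPKM of Perp. For the CREB targets, whose activator CREB is known from human cells to contact TAF4, 2 of 8 lay above both controls and 1 below (median -0.02). The immediate early genes had 1 of 10 above and 4 below (median -0.12), the retinoic acid targets 1 of 8 above and 4 below (median -0.11), the Wnt targets 1 of 6 above and 2 below (median -0.01), and the imprinted genes 3 of 18 above and 6 below (median -0.15). H19, an imprinted noncoding RNA, had 5.19 and 5.47 RPKM in the low-Taf4 libraries, against 7.80 and 6.93 RPKM in the controls.

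All 20 ribosomal protein genes of the list, which does not hold the whole family, overlapped between the groups (median -0.02). Reads of these genes may be shared with their many processed pseudogenes. Ribosome biogenesis had 3 of 16 genes above both controls and 1 below (median 0.05), and hypoxia and glycolysis had 2 of 16 above and 3 below (median -0.02). The G1/S and replication list had 6 of 15 above and 0 below (median 0.07) and the G2/M list 4 of 14 and 0 (median 0.06). The general transcription factors had 6 of 17 above and 1 below, the RNA polymerase II subunits 3 of 12 and 0, and the SAGA subunits 2 of 21 and 4. Gtf2a1, a subunit of TFIIA, had 10.8 and 11.2 RPKM in the low-Taf4 libraries, against 8.50 and 7.51 RPKM in the controls (0.42 ± 0.09, limma adjusted p = 0.31). The integrated stress response had 2 of 17 above and 4 below (median -0.06), heat shock 1 of 10 and 5 (median -0.11), cholesterol synthesis 5 of 19 and 2 (median 0.08), and the actin and contractile genes 0 of 11 and 6 (median -0.13).

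The design text names the search for subunits that matter most for global transcription, so the size of the difference was set beside that of the other knockdowns. Each library was compared with the control of its own replicate number, which all libraries of that number share. In the shTaf4b Rep1 library 24 genes were at least 2-fold from control Rep1, 7 higher and 17 lower. The other 19 libraries titled replicate 1 had 20 to 402 (median 59). The 20 belonged to shTbp Rep1, where no target stood clearly low. Its lowest, Med25, was at 76.4% of the set median, beside 77.8% in control Rep1. The 402 belonged to shMed16 Rep1, with Med16 at 66.1%. In the shTaf4 Rep2 library 29 genes were at least 2-fold from control Rep2, 12 higher and 17 lower, where the others had 30 to 238 (median 67). In order of this count the low-Taf4 libraries were second and first from the lowest of 20. The targets were not lowered equally, however. In shTaf4 Rep2, Taf4 was at 55.7% of the set median, the weakest reduction of a lowest target among knockdown libraries titled replicate 2. Among those titled replicate 1, only shMed16 Rep1 and shTbp Rep1 had a weaker one than shTaf4b Rep1. Whether the low counts reflect this weaker reduction or the subunit itself was not tested. By mean absolute log2 difference over genes, shTaf4 Rep2 was number 4 of 41 in nearness to shTaf4b Rep1, which was in turn number 2 of 41 in nearness to shTaf4 Rep2. The library nearest to each was one with Taf11 as its lowest target.

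**Figure D3:**
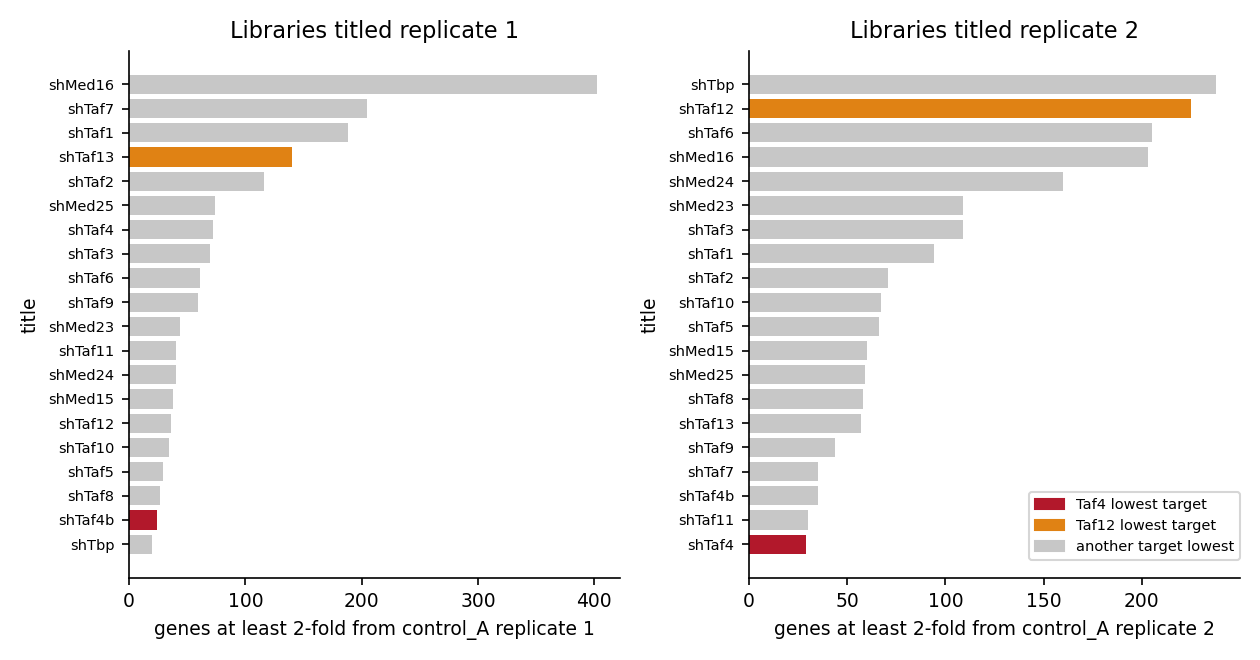
Number of genes at least 2-fold from the control of the same replicate number (horizontal axes, starting at 0) for the 20 knockdown libraries titled replicate 1 and the 20 titled replicate 2, each named by its title. The low-Taf4 libraries (red) have 24 and 29 genes, near the low end, and the libraries in which Taf12 was the lowest target (orange) have 140 and 225. The targets were not lowered equally across libraries.

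The partner of TAF4 gave the first direct contrast. The libraries with the lowest Taf12, one per replicate number, were titled shTaf13 Rep1 and shTaf12 Rep2, and had 3.90 and 4.86 RPKM of Taf12, where the other 40 had 11.9 to 25.8 RPKM. Their Taf4 stood at 15.2 and 14.4 RPKM. This contrast uses no control library, and control values are given only for orientation. A difference in it may lie on the side of either group of libraries. In limma 3892 of 11683 genes (33.3%) differed, 1750 higher (15.0%) and 2142 lower (18.3%) in the low-Taf4 libraries. Both low-Taf4 values lay above both low-Taf12 values for 3778 genes (32.3%) and below both for 4517 (38.7%). Of the called genes, 59 were higher and 102 lower by at least 2-fold on the log2(RPKM + 1) scale. The split was 2450 higher and 2193 lower after upper-quartile scaling, and 1678 higher and 1329 lower without shTaf12 Rep2. The count was 1890 without shTaf4b Rep1 and 1343 without shTaf4 Rep2, and 7088 with the spread of the other Mediator set.

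The genes named by size, 5 in each direction, were all called. Vgll3, a cofactor of TEAD factors, was lower, with 2.37 and 2.30 RPKM in the low-Taf4 libraries, against 10.3 and 10.5 RPKM in the low-Taf12 libraries (log2 -1.77 ± 0.08, limma adjusted p = 0.00097). The controls had 3.33 and 2.54 RPKM. The imprinted growth factor Igf2 was lower, with 13.4 and 17.7 RPKM in the low-Taf4 libraries, against 47.5 and 58.4 RPKM in the low-Taf12 libraries (-1.71 ± 0.15), and its controls had 17.3 and 16.6 RPKM. Wls, which carries Wnt proteins to the cell surface, had 6.54 and 6.39 RPKM in the low-Taf4 libraries, against 21.1 and 24.0 RPKM in the low-Taf12 libraries (-1.66 ± 0.09). The controls had 8.23 and 6.37 RPKM of Wls.

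Among the named genes the largest differences were in histone genes, whose copies are so alike that reads can be shared between them. H1f2, a linker histone, had 3.84 and 3.10 RPKM in the low-Taf4 libraries, against 18.3 and 23.4 RPKM in the low-Taf12 libraries (-2.29 ± 0.14). H2bc4, a histone H2B gene, had 4.91 and 6.17 RPKM in the low-Taf4 libraries, against 29.4 and 31.5 RPKM in the low-Taf12 libraries (-2.27 ± 0.11). Both were called in limma (adjusted p = 0.00097 for each). The controls had 1.58 and 3.62 RPKM of H1f2, and 6.76 and 5.52 RPKM of H2bc4.

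On the higher side, Pla2g1b, a secreted phospholipase A2, had 14.4 and 17.5 RPKM in the low-Taf4 libraries, against 3.46 and 4.51 RPKM in the low-Taf12 libraries (1.77 ± 0.13). Cyct, the testis form of cytochrome c, had 11.6 and 13.9 RPKM in the low-Taf4 libraries, against 3.29 and 3.09 RPKM in the low-Taf12 libraries (1.71 ± 0.10). Mymx, the micropeptide myomixer of muscle cell fusion, had 28.2 and 31.3 RPKM in the low-Taf4 libraries, against 9.52 and 8.45 RPKM in the low-Taf12 libraries (1.62 ± 0.09). These 3 genes, the septin gene Septin1 (1.60 ± 0.07) and the small nucleolar RNA Snora17 (1.63 ± 0.28) were called in limma, with adjusted p of 0.00097 to 0.0079.

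Gene groups of the stem cell state were higher in the low-Taf4 than in the low-Taf12 libraries. Of the naive pluripotency list 7 of 14 genes were higher and 0 lower, and of the general list 8 of 12 and 1, beside 15.0% and 18.3% of all genes. Fgf4 had 33.6 and 41.8 RPKM in the low-Taf4 libraries, against 11.4 and 14.5 RPKM in the low-Taf12 libraries (1.48 ± 0.14). Nr0b1 (Dax1), a nuclear receptor of the naive network, had 28.02 and 33.1 RPKM in the low-Taf4 libraries, against 10.6 and 11.8 RPKM in the low-Taf12 libraries (1.37 ± 0.10). Pou5f1 had 294 and 328 RPKM in the low-Taf4 libraries, against 188 and 197 RPKM in the low-Taf12 libraries (0.69 ± 0.10). The controls had 25.03 and 29.98 RPKM of Fgf4, 20.8 and 26.8 RPKM of Nr0b1, and 293 and 352 RPKM of Pou5f1. The primed list had 5 of 9 genes higher and 1 lower, with Dnmt3a, a DNA methyltransferase, higher by 1.07 ± 0.08 and Cdh2 (N-cadherin) lower at -0.67 ± 0.09. Of the germline list 4 of 7 were higher and 0 lower. Ddx4 had 10.3 and 11.2 RPKM in the low-Taf4 libraries, against 5.82 and 5.40 RPKM in the low-Taf12 libraries (0.83 ± 0.09).

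Several lists of growth and proliferation had more genes higher than lower. All 20 ribosomal protein genes of the list were higher, by 0.42 to 0.93 on the log2 scale (median 0.58, beside -0.03 over all genes tested). Among them was Rps4x, with 315 and 336 RPKM in the low-Taf4 libraries, against 209 and 198 RPKM in the low-Taf12 libraries. Ribosome biogenesis had 13 of 16 genes higher and 0 lower, G1/S and replication 11 of 15 and 0, and G2/M 11 of 14 and 0. Ccne1 (cyclin E1) had 76.4 and 81.8 RPKM in the low-Taf4 libraries, against 42.4 and 41.1 RPKM in the low-Taf12 libraries (0.90 ± 0.08). Npm1, the nucleolar chaperone nucleophosmin, had 387 and 394 RPKM in the low-Taf4 libraries, against 265 and 258 RPKM in the low-Taf12 libraries (0.58 ± 0.09). The integrated stress response list had 12 of 17 genes higher and 1 lower. Psat1, an enzyme of serine synthesis, had 91.5 and 106 RPKM in the low-Taf4 libraries, against 46.3 and 44.2 RPKM in the low-Taf12 libraries (1.11 ± 0.09). Hypoxia and glycolysis had 8 of 16 higher and 0 lower and heat shock 3 of 10 and 1. Cholesterol synthesis, with 3 of 19 higher and 1 lower, was near the 15.0% of all genes called higher.

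Lineage and signalling genes were lower in the low-Taf4 than in the low-Taf12 libraries. Of the primitive endoderm markers 12 of 13 were lower and 0 higher (median -0.72), and of the trophectoderm markers 8 of 9 and 0 (median -0.84). Gata4, a factor of primitive endoderm, had 20.3 and 18.1 RPKM in the low-Taf4 libraries, against 29.8 and 39.4 RPKM in the low-Taf12 libraries (-0.80 ± 0.13). Krt18, the keratin partner of Krt8, had 234 and 217 RPKM in the low-Taf4 libraries, against 508 and 602 RPKM in the low-Taf12 libraries (-1.29 ± 0.11). Summed over the full lists, primitive endoderm markers reached 1414 and 1176 RPKM in the low-Taf4 libraries, against 1911 and 2362 RPKM in the low-Taf12 libraries, and trophectoderm markers 398 and 381 RPKM in the low-Taf4 libraries, against 810 and 977 RPKM in the low-Taf12 libraries, with Elf5 at 0 in the low-Taf12 libraries. Embryonic stem cell markers summed to 1217 and 1328 RPKM in the low-Taf4 libraries, against 882 and 895 RPKM in the low-Taf12 libraries. In the controls the sums were 1463 and 1505 RPKM for primitive endoderm, 471 and 442 for trophectoderm and 1152 and 1319 for embryonic stem cells. The part of cell type makeup in the other differences was not tested.

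The TGF-beta and BMP list had 8 of 13 genes lower and 0 higher, the actin and contractile list 9 of 11 and 1, the immediate early list 6 of 10 and 2, the CREB list 6 of 9 and 1, and the p53 list 12 of 20 and 1. Ccn1, a matricellular protein, had 113 and 108 RPKM in the low-Taf4 libraries, against 235 and 290 RPKM in the low-Taf12 libraries (-1.23 ± 0.12). Tagln (transgelin), which binds actin, had 72.8 and 68.3 RPKM in the low-Taf4 libraries, against 139 and 160 RPKM in the low-Taf12 libraries (-1.07 ± 0.10). Cdkn1a (p21), the cyclin-dependent kinase inhibitor induced by p53, had 37.4 and 41.7 RPKM in the low-Taf4 libraries, against 62.9 and 76.5 RPKM in the low-Taf12 libraries (-0.80 ± 0.11). Of the imprinted genes 10 of 18 were lower and 4 higher, with Peg10, a gene derived from a retrotransposon, at 120 and 122 RPKM in the low-Taf4 libraries, against 377 and 366 RPKM in the low-Taf12 libraries (-1.61 ± 0.08). All 6 Hox genes tested were lower, as were 2 of 4 mesendoderm markers, while the Wnt and retinoic acid lists were mixed (2 higher and 4 lower of 8, and 2 higher and 4 lower of 7).

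Of the 13 TFIID subunits tested in this contrast 1 was higher: Taf8, which had 9.72 and 10.2 RPKM in the low-Taf4 libraries, against 5.75 and 7.86 RPKM in the low-Taf12 libraries (0.50 ± 0.13). Among the paralogs Taf5l, a SAGA subunit, was higher (0.32 ± 0.07) and Taf9b lower (-0.66 ± 0.13). Gtf2b (TFIIB) was lower, with 14.1 and 16.3 RPKM in the low-Taf4 libraries, against 21.4 and 25.3 RPKM in the low-Taf12 libraries (-0.59 ± 0.11), and the general transcription factors had 2 of 17 higher and 2 lower. Gtf2h4, a subunit of TFIIH, was higher, with 19.3 and 18.4 RPKM in the low-Taf4 libraries, against 14.3 and 13.05 RPKM in the low-Taf12 libraries (0.44 ± 0.08). SAGA had 5 of 20 subunits higher and 1 lower, beside 15.0% and 18.3% of all genes.

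**Figure D4:**
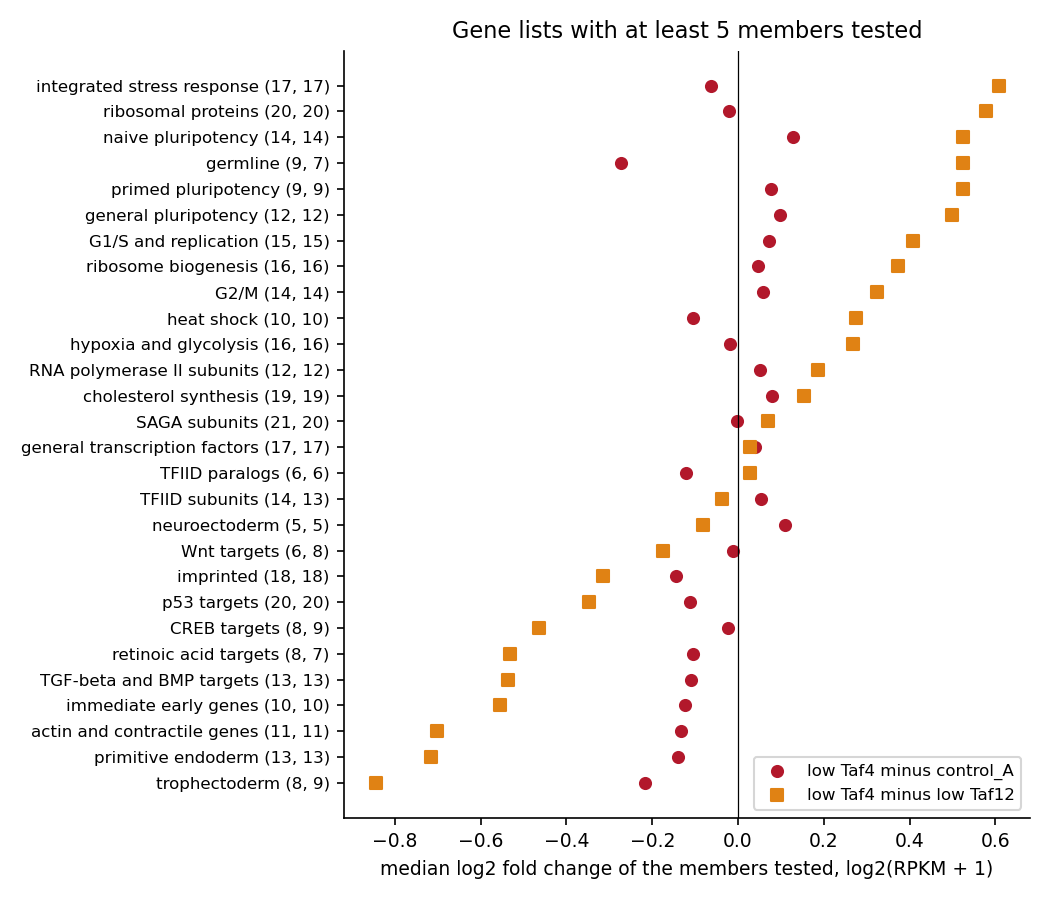
Median log2 fold change on the log2(RPKM + 1) scale (horizontal axis) of 28 gene lists, for low Taf4 minus the controls (red circles) and low Taf4 minus low Taf12 (orange squares), with the number of members tested in each contrast in brackets. Against the controls the medians run from -0.27 to 0.13, and against low Taf12 from -0.84 to 0.61.

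The paralog of TAF4 gave the second direct contrast. The libraries with the lowest Taf4b, titled shTaf5 Rep1 and shTaf4b Rep2, had 2.80 and 2.93 RPKM of Taf4b, where the other 40 had 6.21 to 11.6 RPKM, and their Taf4 stood at 12.7 and 14.1 RPKM. In limma 1 of 11472 genes (0.00872%) differed. At an unadjusted p under 0.05 there were 886. The gene was Tdrd12, a Tudor-domain protein of the piRNA pathway that silences transposons in germ cells. It had 10.1 and 11.3 RPKM in the low-Taf4 libraries, against 3.996 and 4.08 RPKM in the low-Taf4b libraries (1.21 ± 0.09, limma adjusted p = 0.033). The controls had 8.13 and 8.29 RPKM, below the low-Taf4 and above the low-Taf4b libraries. The count of 1 became 77 without shTaf4b Rep1, 93 without shTaf4 Rep2, 41 without shTaf5 Rep1 and 21 without shTaf4b Rep2, and Tdrd12 was not called when all genes above 0 were tested (limma adjusted p = 0.15).

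The next genes by size were not called. Lefty1, an inhibitor of Nodal signalling, had 12.4 and 13.2 RPKM in the low-Taf4 libraries, against 22.4 and 29.6 RPKM in the low-Taf4b libraries (-0.95 ± 0.13, limma adjusted p = 0.15). Lefty2, its neighbour in function, had 6.12 and 6.87 RPKM in the low-Taf4 libraries, against 11.6 and 14.7 RPKM in the low-Taf4b libraries (-0.91 ± 0.12, limma adjusted p = 0.15). For both Lefty genes the controls had values near those of the low-Taf4 libraries, at 10.4 and 15.3 RPKM for Lefty1 and 5.34 and 6.35 RPKM for Lefty2.

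Dppa3 had 7.16 and 7.46 RPKM in the low-Taf4 libraries, against 4.52 and 3.66 RPKM in the low-Taf4b libraries (0.71 ± 0.11), and Lef1, a factor of Wnt signalling, had 8.08 and 9.45 RPKM in the low-Taf4 libraries, against 5.22 and 4.98 RPKM in the low-Taf4b libraries (0.67 ± 0.10), each with an adjusted p of 0.21 in limma. Pla2g7, which degrades platelet-activating factor, had 3.14 and 3.72 RPKM in the low-Taf4 libraries, against 6.91 and 6.72 RPKM in the low-Taf4b libraries. The small RNAs Snord12, Snora65 and Mir7653 were also in the list. In this contrast 0 genes were called in each of the 32 lists, to which Tdrd12 does not belong. The germline list, with which TAF4B is associated, had 1 of 9 members below both low-Taf4b libraries, 0 above and 8 overlapping (median -0.06, beside -0.0022 over all genes tested), where 19.3% and 18.3% of all genes lay below and above.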

How the data were processed

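The authors' reads had been aligned with TopHat2 to mm9, per the submitters' processing notes (the counting tool, strand setting and versions were not stated there). The deposited tables hold the authors' RPKM values for 34995 lines, of which 33565 were named from RefSeq GRCm38.p6, 189 from GENCODE vM21 and 1241 not at all. Each of 24206 genes took its transcript with the highest mean over 100 libraries. The read denominators were recovered from the steps of low values.

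In each contrast limma 3.58.1 (limma-trend, R 4.3.3) was run on log2(RPKM + 1) over the 4 libraries compared, two-sided, for genes that reached 1 RPKM in 2 of them. A call is a Benjamini-Hochberg adjusted p below 0.05. Differences are the low-Taf4 libraries minus the other group, with standard errors. The genes that chose the libraries of a contrast were not tested in it: Taf4 throughout, with Taf12 or Taf4b in its own direct contrast. With 2 libraries against 2 no permutation test can pass, so none was used. Simulated data were made for the contrast with the controls (11439 genes, 200 changed). Of genes changed by a log2 of 1, 89.9% were recovered, and of those changed by 2, 98%, with 0 others called. The simulated spreads were shuffled over genes anew for each library, unlike those of the real data. These shares therefore do not measure what the contrast of the real libraries could detect.

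Named genes were the 12 in each direction (5 in the direct contrasts) with the largest differences, at least 5 RPKM in a group and no overlap, the TFIID members, and up to 4 called or the 2 most abundant members of each list. Other list members with large differences were named after their values were seen, and some genes that these rules name are not reported here. The libraries and the 32 lists were chosen with earlier results of these data known. Alternatives were the pseudocount, the filter, upper-quartile scaling, the spread estimate, the replicate number as a block and leaving out each library.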

Additional observations from a re-analysis of the deposited data

How the results depend on the processing

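Against the controls, 0 genes were called with a pseudocount of 0.1, without a filter, with a filter of 5 RPKM and after upper-quartile scaling. The spread of the TFIID set also gave 0, but it grouped libraries by titles in doubt and so held differences between knockdowns. With the spread of the other Mediator set 664 were higher and 881 lower, and leaving out 1 library gave 0 to 14 higher and 6 to 15 lower. Against low Taf12 the count was 2502 without a filter, 7088 with that spread and 1343 to 3647 with a library left out, while the remaining settings gave 2874 to 5478. Against low Taf4b it was 0 without a filter, 1114 with that spread and 21 to 93 with a library left out. The replicate numbers are not stated to mark a shared culture or day. With them as a replicate block 75 genes were higher and 122 lower than in the controls, 5478 differed from low Taf12 and 589 from low Taf4b. Within both numbers 61.8% of genes differed from the control in the same direction. No gene named by size of difference reversed its direction under the settings in which it was tested. Other genes named in the text were not all followed across the settings, so their directions may depend on them. The cause of the shifts in the counts was not tested. Genes near 1 RPKM rest on few reads, and differences among them below the spread of each pair were not detectable at this depth.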
